A study of Mus musculus with 6 samples.

Results

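The genes described here are the cyclic nucleotide phosphodiesterases (symbols starting with *Pde* and a digit), the adenylyl cyclases (*Adcy*), the soluble guanylyl cyclase subunits (*Gucy1*), the subunits of cAMP-dependent protein kinase (PKA; *Prkar* and *Prkac*), the cGMP-dependent protein kinases *Prkg1* and *Prkg2* (PKG), and the A-kinase anchoring proteins (*Akap*). They were chosen by symbol, with earlier results of these data known. Of 22063 genes in the table, 63 carried such a symbol, and 48 of these were among the 12862 genes with enough counts to be tested. RNA had been sequenced from mouse cardiac fibroblasts with floxed *Tet3*, a gene for an enzyme that oxidises 5-methylcytosine in DNA. One group had received an adenovirus coding for GFP (labelled Control) and the other an adenovirus coding for Cre recombinase (labelled *Tet3* knockout). Both groups had been treated with TGF-β, a cytokine that drives fibroblasts toward contractile myofibroblasts. Each group held 3 libraries, named GFP and CRE replicates 1 to 3. Cells without TGF-β, and cells that received Cre but lacked the floxed alleles, were not analysed here, so the presence of Cre and the loss of *Tet3* cannot be told apart.

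cAMP is made by adenylyl cyclases, which respond to G protein-coupled receptors, and cGMP is made by soluble guanylyl cyclase on binding of nitric oxide or by natriuretic peptide receptors. cAMP acts mainly on PKA, a tetramer of regulatory and catalytic subunits that anchoring proteins hold near its targets, and cGMP acts on PKG. Phosphodiesterases hydrolyse both nucleotides, and some of them act on one nucleotide under control of the other. In cardiac fibroblasts, raised cAMP or cGMP is known to oppose the turn to myofibroblasts.

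Total counts were between 17002126 and 20343590 per library, so that 3 counts, taken as the limit that a count of 0 allows, corresponded to between 0.156 and 0.187 CPM (the normalised read count, scaled to a common library size with the TMM factor; counting error only). Libraries of the same group correlated at r between 0.989 and 0.993 across genes and libraries of different groups at r between 0.963 and 0.970. *Tet3* itself had 1044, 965 and 1000 counts in GFP replicates 1, 2 and 3 and 642, 649 and 637 counts in CRE replicates 1, 2 and 3. Its level in CRE was 60.8% of that in GFP (log2 fold change -0.72, standard error 0.08, adjusted p = 5.36e-05, edgeR), so that *Tet3* reads fell but did not disappear. Of 9 fibroblast markers, 9 were tested and 8 were lower in CRE, while *Thy1* was not called (log2 fold change -0.10). The summed level of the 9 ran from 29289 to 30455 CPM in GFP and from 18106 to 19516 CPM in CRE. Most of it was *Col1a1* (means of 13729 and 8247.9 CPM) and *Col1a2* (means of 11568 and 7391.5 CPM). The 8 cardiomyocyte markers were under 1 CPM, and *Myh6* had no counts in any library.

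Of the 48 tested members, 13 were higher in CRE and 19 were lower at an adjusted p under 0.05 (edgeR quasi-likelihood test, adjusted over all tested genes), which is 66.7% called. Over all tested genes 51.2% were called, 25.5% higher and 25.7% lower. A fold change over 1.5 or under 0.66 was also reached by 3 higher and 11 lower members, 6.25% and 22.9% of those tested, where the shares of all tested genes were 7.14% higher and 9.84% lower. The libraries of the groups did not overlap in CPM for 36 members , 15 higher and 21 lower, where 59.6% of all tested genes did not overlap (30.0% higher, 29.6% lower). The median log2 fold change of the members was -0.10, and that of all tested genes was 0.0052. The lower calls lay mostly among the enzymes that hydrolyse cyclic nucleotides and in the nitric oxide and cGMP branch. Of 14 tested cyclic nucleotide phosphodiesterases, 10 were lower and 2 were higher, with a median log2 fold change of -0.57. Among the other 34 tested members 11 were higher and 9 were lower, with a median of 0.10. With libraries scaled by their size alone, the median of all tested genes moved up by 0.16, 72.6% of all calls were higher, and 20 members were higher and 15 lower. The 11 members lower past the fold limit had an adjusted p under 0.05 in all 16 other fits that were run.

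**Figure D1:**
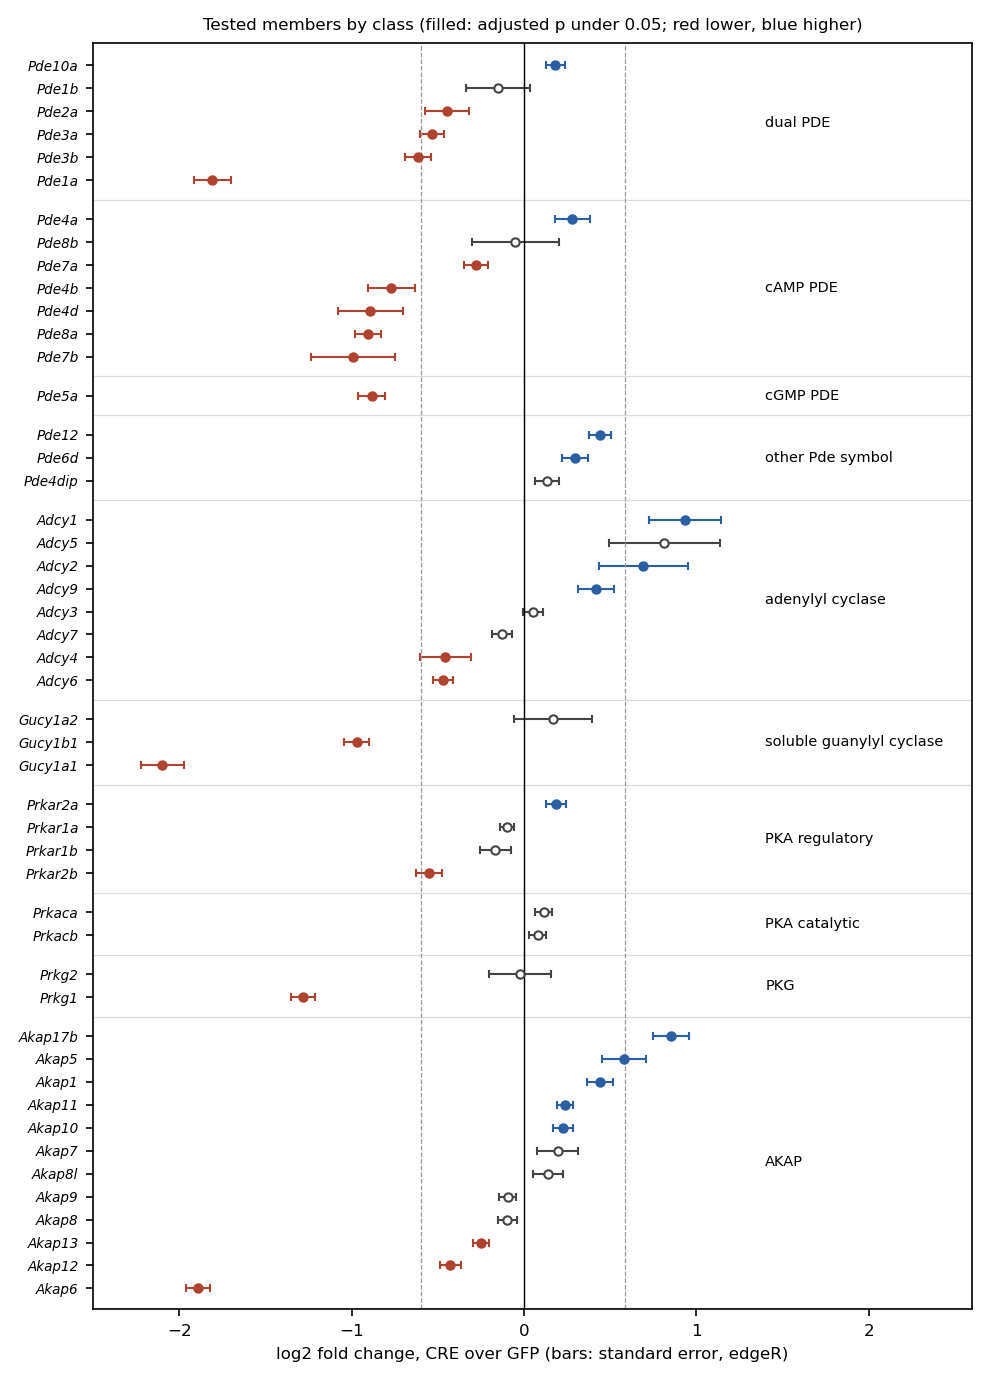
Log2 fold change of CRE over GFP for the 48 tested members, grouped by class, with bars for the edgeR standard error and dashed lines at folds of 1.5 and 0.66. Filled red points are lower and filled blue points higher at an adjusted p under 0.05, and *Gucy1a1*, *Akap6*, *Pde1a* and *Prkg1* lie farthest to the left at -2.10, -1.89, -1.81 and -1.28.

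The α1 and β1 subunits of soluble guanylyl cyclase, PKG type I and the cGMP-specific phosphodiesterase *Pde5a* were lower in CRE, while the α2 subunit and PKG type II were not called. *Gucy1a1* encodes the α1 subunit of soluble guanylyl cyclase, the receptor for nitric oxide. It had 266, 260 and 304 counts in GFP and 62, 60 and 81 counts in CRE, listed here and in what follows from replicate 1 to 3. The groups were far apart, and the level in CRE was 23.3% of 15.7 ± 0.948 CPM in GFP (SD, n = 3; log2 fold change -2.10, standard error 0.12, adjusted p = 9.03e-07). *Gucy1b1* encodes the β1 subunit, which carries the heme group that binds nitric oxide. Its counts were 691, 705 and 811 in GFP and 433, 360 and 387 in CRE. No CRE library reached the level of a GFP library, and the mean was 51.0% of 41.6 ± 1.67 CPM (log2 fold change -0.97, standard error 0.07, adjusted p = 3.48e-06). *Gucy1a2*, which encodes the alternative α2 subunit, had 39, 82 and 80 counts in GFP and 90, 66 and 79 in CRE. These ranges overlapped, and no difference was called (log2 fold change 0.17, standard error 0.23, adjusted p = 0.571).

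Within a library the α1 subunit was scarcer relative to its partner in CRE. The ratio of *Gucy1a1* to *Gucy1b1* in FPKM (a level scaled by both transcript length and sequencing depth) was 0.272, 0.261 and 0.265 in GFP and 0.101, 0.118 and 0.148 in CRE. The groups did not overlap, and the mean log2 ratio moved from -1.91 ± 0.031 to -3.05 ± 0.276, a difference of -1.14 (exact two-sided permutation test, p = 0.1, the smallest that 3 against 3 libraries allow; 0.175 after adjustment over 7 ratios). Summed FPKM of the 4 soluble guanylyl cyclase genes went from 17.04 ± 0.369 in GFP to 9.81 ± 0.792 in CRE, of which *Gucy1b1* made 71.6% and 70.9%.

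*Prkg1* encodes PKG type I, the main cGMP-dependent kinase of contractile cells. It had 1363, 1618 and 1756 counts in GFP and 745, 589 and 704 in CRE. Every CRE library lay below every GFP library, and the level fell to 41.1% of 89.1 ± 3.74 CPM (log2 fold change -1.28, standard error 0.07, adjusted p = 6.51e-07). *Prkg2*, the membrane-bound type II kinase, had 79, 61 and 79 counts in GFP and 68, 85 and 73 in CRE, which overlap (log2 fold change -0.02, standard error 0.18, adjusted p = 0.924). *Pde5a* encodes the cGMP-specific enzyme that sildenafil inhibits, and was the only one of the 5 cGMP-specific phosphodiesterase genes with enough counts to be tested. Its counts were 845, 1032 and 1157 in GFP and 608, 495 and 616 in CRE. The groups did not overlap, and *Pde5a* fell to 54.2% (log2 fold change -0.88, standard error 0.08, adjusted p = 1.13e-05).

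*Gucy1a1* (chr3:82092427-82145789) and *Gucy1b1* (chr3:82032006-82074689) are neighbours on the minus strand of chromosome 3 in GRCm38, with a gap of 17737 bases between them. The bases before their transcript starts, and before those of *Prkg1* (chr19:30564489-31765033, minus strand), are shown because TET3 acts on methylated cytosine next to guanine (CpG). DNA methylation was not measured here. The sequences are from RefSeq (GRCm38.p6), read on the minus strand with exon bases left out and each CpG in capitals. The outer *Gucy1a1* stretch is chr3:82145790-82145900 and the inner one, within the gene, is chr3:82145074-82145262. The *Gucy1b1* stretch is chr3:82074712-82074961. The outer *Prkg1* stretch is chr19:31765034-31765283 and the inner one, within the gene, is chr19:31664371-31664620.
Gucy1a1, outer start: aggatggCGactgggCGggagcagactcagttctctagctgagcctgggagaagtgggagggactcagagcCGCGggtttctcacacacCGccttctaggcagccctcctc
Gucy1a1, inner start: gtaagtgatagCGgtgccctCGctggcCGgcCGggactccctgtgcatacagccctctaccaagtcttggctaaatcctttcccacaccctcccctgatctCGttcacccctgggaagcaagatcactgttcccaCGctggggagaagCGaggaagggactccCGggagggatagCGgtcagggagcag
Gucy1b1: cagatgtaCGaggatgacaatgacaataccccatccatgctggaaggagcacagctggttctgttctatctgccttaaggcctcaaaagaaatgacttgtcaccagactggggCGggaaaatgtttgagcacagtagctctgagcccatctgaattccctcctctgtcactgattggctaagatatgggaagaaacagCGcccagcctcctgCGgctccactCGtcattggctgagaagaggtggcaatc
Prkg1, outer start: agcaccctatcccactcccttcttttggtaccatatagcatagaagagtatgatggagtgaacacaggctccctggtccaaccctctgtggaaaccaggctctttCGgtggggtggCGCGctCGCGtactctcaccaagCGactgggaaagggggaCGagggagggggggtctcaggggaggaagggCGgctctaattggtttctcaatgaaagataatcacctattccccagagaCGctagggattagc
Prkg1, inner start: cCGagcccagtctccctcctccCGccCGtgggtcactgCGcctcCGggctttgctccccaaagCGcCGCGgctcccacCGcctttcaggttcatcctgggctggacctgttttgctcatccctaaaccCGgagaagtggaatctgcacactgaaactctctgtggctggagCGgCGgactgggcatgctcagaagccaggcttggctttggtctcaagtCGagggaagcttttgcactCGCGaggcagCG
The stretches hold 5 and 9 CpG for *Gucy1a1* (in 111 and 189 bases). Those of 250 bases hold 5 for *Gucy1b1* and 9 and 16 for *Prkg1*.

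The dual-specificity phosphodiesterases, which hydrolyse both cAMP and cGMP, had 4 lower and 1 higher gene among 6 tested. *Pde1a*, which is activated by calcium and calmodulin, was the most abundant per length. It had 2177, 3348 and 3296 counts in GFP and 845, 814 and 966 in CRE. Every CRE library was below every GFP library, and the level went from 165 ± 27.2 to 47.2 ± 3.33 CPM (log2 fold change -1.81, standard error 0.11, adjusted p = 9.80e-07). *Pde3b*, whose hydrolysis of cAMP is inhibited by cGMP, had 606, 812 and 815 counts in GFP and 487, 506 and 530 in CRE. The groups did not overlap in CPM, and it fell to 65.3% of its GFP level (log2 fold change -0.62, standard error 0.08, adjusted p = 9.53e-05), just past the fold limit. *Pde3a*, its relative in heart and vessels, was lower by a similar amount (log2 fold change -0.53, adjusted p = 0.000106). *Pde2a*, which cGMP stimulates, was lower at -0.44 (adjusted p = 0.0144), a call that was lost without CRE replicate 1 or CRE replicate 3 (adjusted p of 0.0634 and 0.0621), with library size alone (adjusted p = 0.0848) and on either FPKM scale. *Pde10a* was the higher gene, at 0.18 (adjusted p = 0.0177), and its call was lost with DESeq2 (adjusted p = 0.0926) and without GFP replicate 2 or CRE replicate 1 (adjusted p of 0.0565 and 0.0506). *Pde1b* was not called (log2 fold change -0.15, adjusted p = 0.532). Summed FPKM of the dual-specificity genes went from 77.8 ± 8.89 in GFP to 36.3 ± 2.31 in CRE, and *Pde1a* made up 70.0% of the sum in GFP and 42.0% in CRE.

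Of 7 tested cAMP-specific phosphodiesterases, 5 were lower and 1 was higher, with a median log2 fold change of -0.77. *Pde4b* and *Pde4d* encode enzymes of the rolipram-sensitive family that ends cAMP signals near receptors and anchoring proteins. *Pde4b*, the most abundant of the class per length, had 894, 1528 and 1393 counts in GFP and 685, 798 and 848 in CRE (log2 fold change -0.77, standard error 0.14, adjusted p = 0.000954). *Pde4d* had 269, 525 and 373 counts in GFP and 224, 190 and 244 in CRE (log2 fold change -0.89, standard error 0.19, adjusted p = 0.00273). In both genes GFP replicate 1 was the lowest GFP library and the nearest to CRE, yet the groups did not overlap in CPM. *Pde7b*, a rolipram-insensitive cAMP enzyme, had 106, 253 and 225 counts in GFP and 99, 87 and 119 in CRE (log2 fold change -0.99, standard error 0.24, adjusted p = 0.00618). *Pde8a*, which has a high affinity for cAMP, had 543, 702 and 719 counts in GFP and 341, 368 and 387 in CRE (log2 fold change -0.91, standard error 0.08, adjusted p = 8.59e-06). The groups did not overlap in CPM in either gene, though for *Pde7b* GFP replicate 1 and CRE replicate 3 were close (6.59 and 6.28 CPM) and their counts overlapped. *Pde7a* was lower by less, at -0.28 (adjusted p = 0.00873), and was not called with library size alone (-0.12, adjusted p = 0.182) or on either FPKM scale. *Pde4a* was the higher one, at 0.28 (adjusted p = 0.0408), and lost its call with DESeq2, with the replicate block, and without GFP replicate 1, GFP replicate 2 or any one CRE library (adjusted p between 0.0668 and 0.129). *Pde8b* was not called (log2 fold change -0.05, adjusted p = 0.889), and its sign was not stable, from -0.25 without GFP replicate 1 to 0.20 without GFP replicate 2.

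GFP replicate 1 stood below the other GFP libraries in CPM for 10 of the 14 tested cyclic nucleotide phosphodiesterases (71.4%), for 18 of all 48 tested members (37.5%) and for 34.7% of all tested genes. Without that library the log2 fold changes were -1.93 for *Pde1a*, -1.24 for *Pde7b*, -1.05 for *Pde4d* and -0.92 for *Pde4b*, each farther from 0 than with it. What sets that library apart was not tested.

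**Figure D2:**
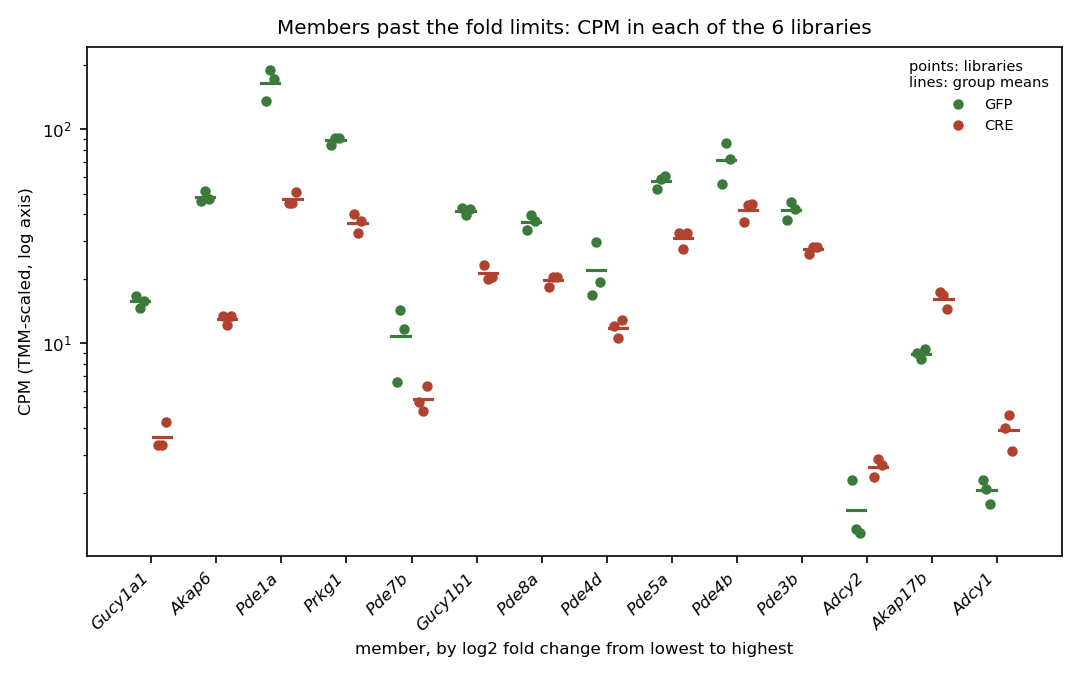
CPM on a log axis in each of the 6 libraries for the 14 members called past the fold limits, ordered by log2 fold change, with points for libraries and lines for group means (green GFP, red CRE). The 3 CRE libraries lie below the 3 GFP libraries in the 11 lower members and above them in *Adcy2*, *Akap17b* and *Adcy1*.

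Of 5 other genes with a *Pde* symbol, none is known as a cyclic nucleotide phosphodiesterase of its own. *Pde12*, a nuclease that trims RNA tails in mitochondria, was higher (log2 fold change 0.44, adjusted p = 0.000301). *Pde6d*, a chaperone of prenylated proteins, was higher too (0.30, adjusted p = 0.00919). *Pde4dip*, a scaffold of the Golgi and centrosome that binds phosphodiesterases, had 2258, 2137 and 2237 counts in GFP and 2684, 2435 and 2536 in CRE and was not called (0.13, standard error 0.07, adjusted p = 0.138). It was called higher in 5 of 16 other fits, those without GFP replicate 1 (adjusted p = 0.00459), with library size alone (0.00391), on either FPKM scale (0.0469 and 0.0456) and with the replicate block (0.0423). *Pde12* shares 527 exon bases with *Arf4* on the other strand, and whether reads were counted by strand is not known.

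Among 8 tested adenylyl cyclases 3 were higher and 2 were lower, with a median log2 fold change of 0.23. *Adcy7*, which responds to G protein βγ subunits, had the highest level per length, with 2037, 2142 and 2108 counts in GFP and 1976, 2031 and 2041 in CRE. It was not called (log2 fold change -0.13, standard error 0.06, adjusted p = 0.0875; 0.034 with library size alone), although it was without GFP replicate 3 (adjusted p = 0.0209). *Adcy6*, a cyclase that calcium inhibits and a main form of heart muscle, was lower at -0.47 (standard error 0.06, adjusted p = 0.00011). *Adcy1*, which calcium and calmodulin activate and which is best known from neurons, had 37, 37 and 34 counts in GFP and 75, 83 and 59 in CRE. The groups did not overlap and *Adcy1* rose (log2 fold change 0.93, standard error 0.21, adjusted p = 0.00404), from a low level. *Adcy2*, another βγ-responsive form, had 37, 24 and 25 counts in GFP and 44, 52 and 51 in CRE (log2 fold change 0.69, standard error 0.26, adjusted p = 0.0432). The call of *Adcy2* was lost when GFP replicate 2, GFP replicate 3 or any one CRE library was left out (adjusted p between 0.0597 and 0.154), and with DESeq2 (adjusted p = 0.0754) or the replicate block (adjusted p = 0.0586). *Adcy9* was higher at 0.42 (adjusted p = 0.00789) and *Adcy4* was lower at -0.46 (adjusted p = 0.0257). The *Adcy4* call did not hold without GFP replicate 2, CRE replicate 2 or CRE replicate 3 (adjusted p between 0.0634 and 0.0937), with library size alone (adjusted p = 0.11) or on either FPKM scale. *Adcy5*, the closest relative of *Adcy6*, had a log2 fold change of 0.81 that was not called (adjusted p = 0.0574), and was called without GFP replicate 2 (adjusted p = 0.0369), with library size alone and with at least 10 counts in every library. Summed FPKM of the class was 46.5 ± 1.41 in GFP and 46.0 ± 1.19 in CRE. In GFP replicate 3 the FPKM of *Adcy4* (6.27) was out of line with 2.02 and 2.22 in the other GFP libraries, which its counts of 119, 145 and 139 were not.

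The bases before the start of *Adcy1*, the adenylyl cyclase with the largest called rise, are shown as well (chr11:7063183-7063432, plus strand, GRCm38.p6 from RefSeq, CpG in capitals).
Adcy1: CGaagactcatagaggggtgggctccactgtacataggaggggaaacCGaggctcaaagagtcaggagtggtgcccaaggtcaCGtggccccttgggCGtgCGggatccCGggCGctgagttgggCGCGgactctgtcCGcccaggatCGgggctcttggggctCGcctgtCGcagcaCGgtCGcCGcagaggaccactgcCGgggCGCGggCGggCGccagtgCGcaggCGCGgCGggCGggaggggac
It holds 26 CpG in 250 bases. The *Gucy1a1* stretches are shorter, and their full windows of 250 bases, exon bases included, hold 12 and 10 CpG. *Pde5a*, lower in the cGMP branch, has 22 CpG in its window, and *Akap17b*, which is higher, has 8.

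PKA subunits were among the most abundant members, and none passed the fold limits. *Prkar1a*, the type I regulatory subunit found in all tissues, had the highest level per length of all members, a mean of 151 FPKM over the 6 libraries. Its counts were 8182, 9375 and 10263 in GFP and 9132, 8953 and 9115 in CRE, and it was not called (log2 fold change -0.10, standard error 0.04, adjusted p = 0.0685; 0.065 with library size alone). Without GFP replicate 1 (adjusted p = 0.036) and with limma-voom it was called lower. *Prkar2b*, a type II regulatory subunit, had 817, 1080 and 1160 counts in GFP and 694, 707 and 775 in CRE, and fell by 0.55 (standard error 0.07, adjusted p = 0.000166). *Prkar2a*, the other type II subunit, had 878, 911 and 956 counts in GFP and 1115, 1097 and 1065 in CRE, and was higher by 0.19 (standard error 0.06, adjusted p = 0.0175). Its call was lost on either FPKM scale, and without GFP replicate 3, CRE replicate 1 or CRE replicate 2 (adjusted p between 0.051 and 0.0743). *Prkar1b* had 421, 443 and 543 counts in GFP and 385, 468 and 459 in CRE and was not called (-0.17, standard error 0.09, adjusted p = 0.15).

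The catalytic subunits carry the kinase activity. *Prkaca* had 1093, 1185 and 1365 counts in GFP and 1330, 1387 and 1410 in CRE (log2 fold change 0.11, standard error 0.05, adjusted p = 0.0744). *Prkacb* had 2241, 2510 and 2546 counts in GFP and 2773, 2687 and 2625 in CRE (0.08, standard error 0.05, adjusted p = 0.201). Neither was called, but both were called higher with library size alone or on either FPKM scale, which moved the median of all tested genes up by between 0.15 and 0.16. *Prkaca* was also called higher with upper-quartile scaling (adjusted p = 0.0436), which moved it by 0.019. The ratio of summed regulatory to summed catalytic FPKM does not depend on library scaling. It was 3.11, 3.31 and 3.33 in GFP and 2.84, 2.73 and 2.85 in CRE, so that the groups did not overlap and the mean log2 ratio was 0.21 lower in CRE, in a design of 3 against 3 libraries whose exact permutation test cannot give a p below 0.1. The ratio of type I to type II regulatory subunits (mean log2 ratio 2.27 in GFP and 2.35 in CRE) overlapped between groups. The ratio of *Prkaca* to *Prkacb* overlapped too (-0.08 and -0.04; exact permutation test, p = 0.6).

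**Figure D3:**
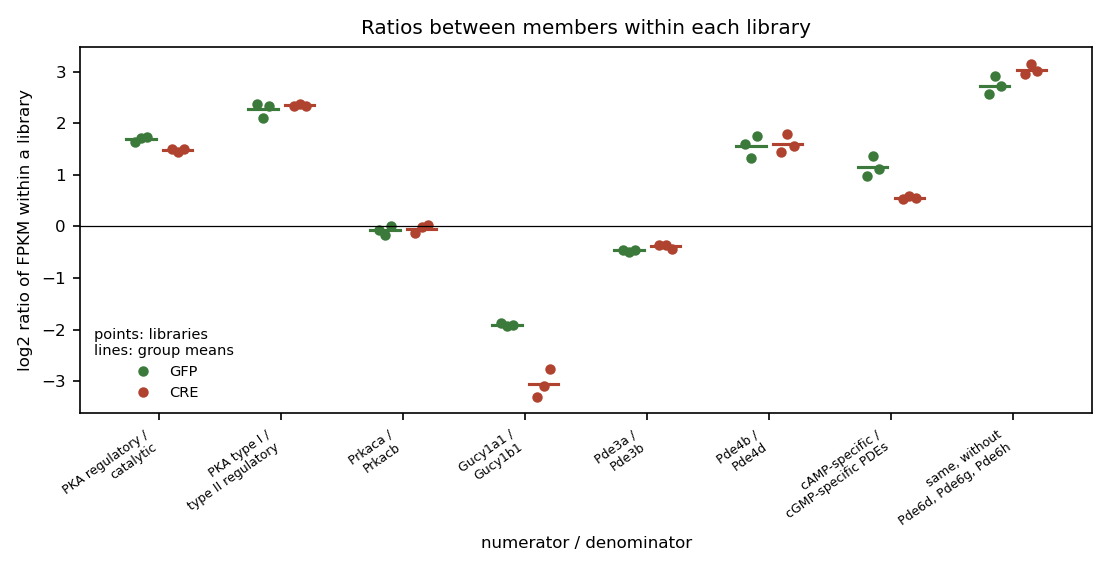
Log2 ratio of FPKM between members within each library, with points for libraries and lines for group means (green GFP, red CRE). The ratio of *Gucy1a1* to *Gucy1b1* is lower in all CRE libraries (mean -3.05 against -1.91), and that of PKA regulatory to catalytic subunits is lower by 0.21, while *Prkaca* to *Prkacb* and *Pde4b* to *Pde4d* overlap.

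The ratios within both phosphodiesterase pairs moved by less than 0.1 on the log2 scale. *Pde3a* to *Pde3b* was higher in CRE by 0.08 on the log2 scale with no overlap (exact permutation test, p = 0.1, adjusted 0.175), and *Pde4b* to *Pde4d* differed by 0.04 with overlap (p = 0.8, exact permutation test). The summed cAMP-specific families over the summed cGMP-specific families (*Pde5*, *Pde6* and *Pde9* symbols) went from a mean log2 ratio of 1.16 to 0.56, a difference of -0.60, which was -0.089 with counts in place of FPKM. That sum includes the chaperone *Pde6d*, and without *Pde6d*, *Pde6g* and *Pde6h*, left out after the values were seen, the log2 ratio was higher in CRE, at 3.05 against 2.73.

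Of 12 tested anchoring proteins, 5 were higher and 3 were lower, and 1 stood apart from the rest. *Akap6*, the scaffold that holds PKA and *Pde4d* at the nuclear envelope of muscle cells, had 746, 910 and 908 counts in GFP and 250, 220 and 254 in CRE. The groups were far apart, and the level fell to 26.9% of 48.3 ± 2.64 CPM (log2 fold change -1.89, standard error 0.07, adjusted p = 1.10e-07). *Akap12* (gravin), the most abundant anchoring protein per length, had 4901, 4749 and 5099 counts in GFP and 3987, 3596 and 3968 in CRE, and was lower by less (-0.43, standard error 0.06, adjusted p = 0.000211). *Akap13*, which also activates RhoA, was lower at -0.25 (adjusted p = 0.00114), but not with library size alone (-0.088, adjusted p = 0.115). *Akap17b*, a gene on the X chromosome, had 144, 149 and 181 counts in GFP and 323, 302 and 272 in CRE, and rose by 0.85 (standard error 0.10, adjusted p = 7.96e-05). *Akap5*, which anchors PKA and calcineurin at the plasma membrane, was higher at 0.58 (adjusted p = 0.00367), just under the fold limit. *Akap1*, the anchor of the outer mitochondrial membrane, was higher at 0.44 (adjusted p = 0.00061). *Akap10* and *Akap11* were higher at 0.23 and 0.24 (adjusted p of 0.00786 and 0.00155), and *Akap7*, *Akap8*, *Akap8l* and *Akap9* were not called. *Akap7* and *Akap8l* were called higher with library size alone (adjusted p of 0.0231 and 0.0107) and on either FPKM scale. Summed FPKM of the class was 150.4 ± 4.05 in GFP and 153.9 ± 4.199 in CRE.

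The stretch before the *Akap6* start (chr12:52699133-52699382, plus strand, GRCm38.p6 from RefSeq) is shown because it holds 0 CpG, so that no letters are in capitals.
Akap6: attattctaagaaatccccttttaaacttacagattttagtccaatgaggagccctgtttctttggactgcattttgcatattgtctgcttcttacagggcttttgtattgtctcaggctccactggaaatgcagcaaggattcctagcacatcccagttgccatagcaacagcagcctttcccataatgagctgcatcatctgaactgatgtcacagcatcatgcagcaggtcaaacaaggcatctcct

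**Figure D4:**
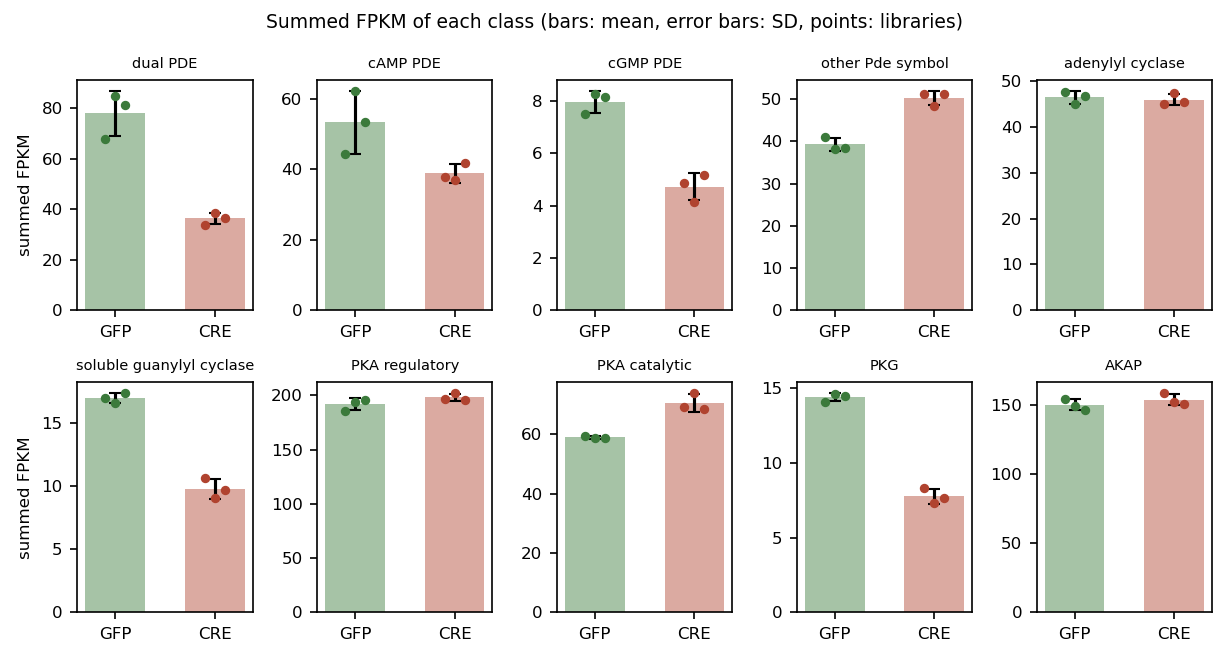
Summed FPKM of each class in GFP and CRE, with bars for means, error bars for SD and points for the 3 libraries, each panel on its own axis from 0. Relative to GFP, the mean in CRE was at 46.6% for dual-specificity phosphodiesterases, 54.0% for PKG, 57.6% for soluble guanylyl cyclase, 102.3% for anchoring proteins, 103.3% for PKA regulatory and 119.6% for PKA catalytic subunits.

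On the log2(FPKM + 1) scale the log2 fold change was higher than with TMM scaling by a median of 0.15 over all tested genes, though single genes moved either way. As sums of CPM, the CRE level was 53.0% of GFP for dual-specificity phosphodiesterases, 66.4% for cAMP-specific ones, 43.6% for PKG, 47.7% for soluble guanylyl cyclase, 91.4% for adenylyl cyclases, 92.7% for PKA regulatory subunits, 106.5% for catalytic subunits and 89.5% for anchoring proteins.

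Markers of other cell types moved with the lower members. The summed level of 8 endothelial markers, of which 7 were lower, ran from 445.3 to 501.4 CPM in GFP and from 196.5 to 225.6 CPM in CRE, and none was at 0. In the smooth muscle and pericyte list of 10 genes, 6 fell and 1, *Cspg4*, rose. Their sum ran from 1314 to 1528 CPM in GFP and from 558.0 to 644.7 CPM in CRE, most of it *Acta2* (means of 1294 and 506.6 CPM), which TGF-β also induces in fibroblasts. The sum of 7 macrophage markers, of which 5 were tested and 3 were lower, ran from 57.7 to 65.9 CPM in GFP and from 34.1 to 37.3 CPM in CRE. *Gucy1a1*, *Gucy1b1*, *Prkg1* and *Pde5a* are also known from smooth muscle and pericytes, and *Pde2a* and *Adcy4* from endothelium. The part of these cells in the results was not tested, and in bulk RNA fewer cells of a type and less RNA per cell cannot be told apart.

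Other genes of the pathway, in a list chosen with earlier results of these data known, were more often lower than higher. Of 56 genes listed outside the symbols above, 39 were tested, 18 were lower (46.2%) and 4 were higher (10.3%), where 25.7% of all tested genes were lower and 25.5% higher. Their median log2 fold change was -0.29. With library size alone 15 were lower and 10 higher, and on either FPKM scale 13 were lower and 9 higher. Upstream of soluble guanylyl cyclase, the endothelial nitric oxide synthase *Nos3* had 128, 111 and 104 counts in GFP and 16, 30 and 31 in CRE (log2 fold change -2.23, adjusted p = 4.61e-05). Of the 8 endothelial markers 7 were lower too, and the part of endothelial cells in the fall of *Nos3* was not tested. The inducible synthase *Nos2* had 381, 932 and 1044 counts in GFP and 315, 428 and 366 in CRE, and it was called lower (-1.13, adjusted p = 0.00452) although GFP replicate 1 and CRE replicate 2 had nearly the same CPM (23.69 and 23.70). The natriuretic peptide receptors *Npr1*, *Npr2* and *Npr3*, which make or clear the signal of the membrane-bound cGMP branch, were not called, although *Npr3* was called higher without GFP replicate 1 (log2 fold change 0.20, adjusted p = 0.0484), *Npr2* and *Npr3* with library size alone (0.28 and 0.27), and *Npr2* on either FPKM scale (0.20 and 0.22).

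Of 9 tested receptors that raise cAMP, 7 were lower. The prostacyclin receptor *Ptgir* fell by 1.54 on the log2 scale (adjusted p = 3.81e-05), the adenosine receptors *Adora2a* by 1.45 (0.015) and *Adora2b* by 0.84 (0.00595), and *Calcrl*, the calcitonin receptor-like receptor, by 1.23 (2.04e-06). *Adcyap1r1* and *Pth1r*, the receptors of PACAP and parathyroid hormone, were lower at -0.69 and -0.66 (adjusted p of 0.00213 and 0.00312), though *Pth1r* was not called on either FPKM scale. The *Adora2a* call was lost without GFP replicate 3, CRE replicate 1 or CRE replicate 3 (adjusted p between 0.0543 and 0.0602). *Gnas*, the stimulatory G protein that couples such receptors to the cyclases, was lower at -0.47 (adjusted p = 7.94e-06). Its relative *Gnal* had 3, 6 and 10 counts in GFP and 23, 21 and 19 in CRE (log2 fold change 1.65, adjusted p = 0.00439).

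Downstream, the PKA inhibitor genes *Pkia* and *Pkig* were lower, at -0.83 (adjusted p = 1.67e-05) and -0.62 (adjusted p = 0.000113). *Pkia* had 459, 482 and 554 counts in GFP and 268, 311 and 299 in CRE. The cAMP-activated exchange factors of Rap1, *Rapgef3* and *Rapgef4*, were lower at -0.53 and -0.51 (adjusted p of 0.00423 and 0.0168), the latter not without CRE replicate 3 (adjusted p = 0.0587), with library size alone (adjusted p = 0.0687) or on either FPKM scale. *Hcn2*, a cyclic nucleotide-gated pacemaker channel, had 32, 39 and 39 counts in GFP and 114, 118 and 122 in CRE, and rose by 1.62 (adjusted p = 1.19e-05). Of 7 CREB factors and coactivators 3 were lower and none was higher, which is 42.9% called, and none passed the fold limits. Of all tested genes 51.2% were called and 25.7% were lower. The lower ones were *Atf1*, *Crebbp* and *Crtc3* (log2 fold changes of -0.39, -0.32 and -0.18, adjusted p of 0.000429, 0.00152 and 0.0289), while *Creb1* and *Crem* were not called. *Crebbp* was not called on either FPKM scale, and the *Crtc3* call was lost there, with library size alone, with DESeq2, and without GFP replicate 1, GFP replicate 3, CRE replicate 1 or CRE replicate 3 (adjusted p between 0.0514 and 0.837). *Vasp*, a PKG and PKA substrate, was lower at -0.37 (adjusted p = 0.000151).

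The 15 untested members had at most 15 counts in any library, and 4 of them (*Pde6b*, *Pde6c*, *Akap4* and *Akap14*) had no counts at all. *Adcy8*, a calcium-activated cyclase like *Adcy1*, had 1, 3 and 1 counts in GFP and 13, 7 and 8 in CRE. *Pde9a*, a cGMP-specific enzyme, had 14, 15 and 5 counts in GFP and 0, 1 and 7 in CRE. Both were called, *Adcy8* higher and *Pde9a* lower, when the filter was lowered to 1 count.

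Windows of 250 bases before a transcript start were found for 52 members, 42 of them tested (RefSeq, GRCm38.p6). In the most CpG-rich window of each gene, the median CpG count was 8 for the 10 members lower past the fold limit, 11 for 14 lower members, 23 for 13 higher members and 25 for 15 members not called. Over all 10120 tested genes with a window it was 17, over all genes called lower 16, and over all genes lower past the fold limit 12. Of the 10 members, 8 were under the median of all tested genes (80.0%), as were 66.1% of all genes lower past the fold limit, 51.8% of all genes called lower and 47.9% of all tested genes with a window. *Pde5a* with 22 and *Pde8a* with 27 CpG were the exceptions, and 3 of the 13 higher members were under that median (*Pde6d* with 5, *Akap17b* with 8 and *Pde12* with 16). These counts describe sequence and say nothing of methylation.

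**Figure D5:**
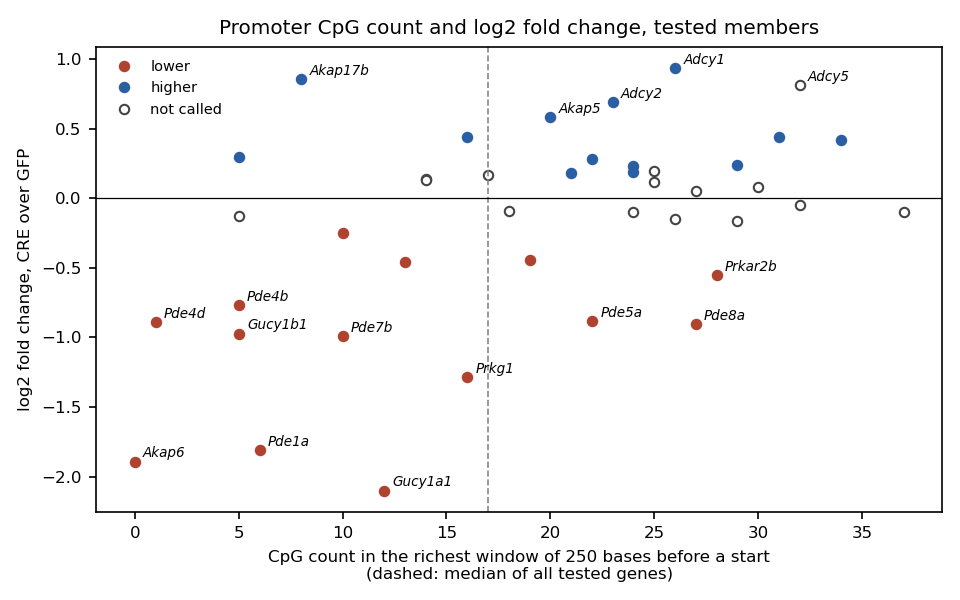
CpG count in the richest window of 250 bases before a transcript start against log2 fold change for the 42 tested members with a window, with the median of all tested genes (17) dashed. Red points are lower, blue points higher and open points not called, and *Akap6*, *Gucy1b1* and *Pde1a* lie at the lower left with 0, 5 and 6 CpG.

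The same windows were searched on both strands for letters bound by factors of the cAMP pathway and, outside it, by serum response factor and TEAD. The cAMP response element TGACGTCA was in 2.49% of windows of all tested genes and in 1.19% of those of tested members, 1 window at *Prkar1a*. The shorter TGACG, which that element contains, was in 25.8% and 17.9%, among them that of *Gucy1b1*. The CArG box of serum response factor was in 1.14% and in 0 member windows, and the TEAD motif GGAATG was in 10.9% and 9.52%. Over all 32851 windows, untested genes included, the shares were 1.55%, 17.8%, 1.47% and 12.6%. A match is not a measured site.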

How the data were processed

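RNA-seq libraries of 3 GFP and 3 CRE samples were used, grouped by their titles. Read trimming (Trimmomatic), alignment to GRCm38 (HISAT2), counting (HTSeq-count) and a DESeq test were done by the authors, as their methods state. The methods name an Ensembl release of the genome and a year for DESeq. Versions of the other tools and the strand setting of the counting are not given in the sources used here. Labels and methods disagree on the kits for RNA extraction and libraries (the methods name a stranded one), which is not settled. Counts per gene and library were deposited by the authors, not normalized. FPKM values were deposited by the authors, from Cufflinks. The authors' columns of group mean FPKM, log2 fold change, p-value and false discovery rate were not used. The 10 tested members that share exon bases with a gene on the other strand (*Pde3a*, *Pde5a*, *Pde7a*, *Pde8b*, *Pde12*, *Adcy2*, *Adcy3*, *Adcy6*, *Akap7* and *Akap9*) are uncertain.

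The whole count table was fitted with edgeR 4.0.16 (R 4.3.3) after filterByExpr with a minimum count of 10 and a minimum total of 15, which left 12862 genes, and TMM scaling. The quasi-likelihood test was two-sided, with Benjamini-Hochberg adjustment over those genes. The fit was tested on simulated data beforehand. The standard error was taken as the size of the log2 fold change over the square root of the F statistic. The authors' figure legend that covers these data gives 3 biological replicates. The labels do not say that libraries came from separate cultures. The p-values measure the spread between these libraries, and how far that spread is technical is not known. Ratios within libraries were tested by exact permutation. Members named with counts per library were those past the fold limits (1.5 and 0.66), the one of each class with the highest mean FPKM, and all tested PKA, PKG and soluble guanylyl cyclase subunits, with pathway genes past the same limits. *Adcy8*, *Pde9a* and the other genes named were picked after their values were seen. The members and lists were chosen with earlier results of these data known. Coordinates are from GENCODE M21 and promoter windows from RefSeq. Other fits used RLE size factors, library size alone, upper quartiles, other count filters, DESeq2 1.42.0, limma 3.58.1 (voom, or log2 FPKM with a pseudocount of 1 or 0.1), the replicate number as a block, and each library left out. One result is not reported here. Figures were drawn with matplotlib 3.10.9.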

Additional observations from a re-analysis of the deposited data

How the results depend on the processing

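The main count was 32 called members. Across scalings, filters and tools the total ran from 29 to 35, of which 28 to 32 were shared with the main count. With each library left out it ran from 27 to 33 (9 to 13 higher, 18 to 21 lower), of which 27 to 31 were shared. Library size alone gave 20 higher members. Past the fold limits, log2(FPKM + 1) left 9 members and lost *Adcy1*, *Adcy2*, *Pde3b*, *Pde4b* and *Pde4d*. *Pde4b* was also lost on log2(FPKM + 0.1). The 3 higher members past the limits became 7 with library size alone, 5 with at least 10 counts in every library, 1 on log2(FPKM + 1) and 6 on log2(FPKM + 0.1), and between 2 and 4 with a library left out. *Pde3b* dropped under the fold limit with library size alone, upper quartiles, either FPKM scale, and without GFP replicate 2 or CRE replicate 1. The 4 higher pathway genes became 10 with library size alone, 2 with at least 10 counts in every library, and 9 on either FPKM scale. The CRE minus GFP difference of the log2 ratio of cAMP-specific to cGMP-specific families was -0.60 on FPKM, -0.089 on counts and 0.31 on FPKM without *Pde6d*, *Pde6g* and *Pde6h*, an alternative chosen after seeing the data. The log2 fold change of *Tet3* stayed between -0.78 and -0.62 with a library left out.

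Some uncalled genes changed sign. With library size alone, log2(FPKM + 1) and log2(FPKM + 0.1), the values were 0.034, 0.042 and 0.044 for *Adcy7*, 0.065, 0.070 and 0.071 for *Prkar1a*, and 0.14, 0.13 and 0.20 for *Prkg2*. With a library left out, *Prkg2* ran from -0.14 (without GFP replicate 2) to 0.10 (without GFP replicate 1), with 0.051 without CRE replicate 1 and 0.016 without CRE replicate 3, and *Gucy1a2* ran from -0.056 (without GFP replicate 1) to 0.34 (without GFP replicate 2). Apart from the scalings and libraries named, causes were not tested.

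The replicate number as a block gave 31 called members (12 higher, 19 lower), of which 30 were shared with the fit without it. It lost *Adcy2* and *Pde4a* and gained *Pde4dip*. Samples of the same number correlated at 0.046, 0.18 and -0.018, and GFP replicate 1 correlated best with CRE replicate 3, so the numbers were not taken as pairs. Depth limits the untested members and those with few counts, such as *Adcy1* and *Adcy2*.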

Other observations

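Dividing a count by the FPKM and the library total gives the transcript length that the authors' FPKM implies. For *Pde1a* it was 2.81, 2.93 and 2.83 kb in GFP and 3.31, 3.11 and 3.40 kb in CRE, and for *Akap13* 7.21, 6.90 and 7.10 kb in GFP and 7.44, 8.19 and 8.01 kb in CRE. These were 2 of 38 members with at least 100 counts in every library (5.26%) whose groups did not overlap and differed by over 10%, where 1.86% of all such genes did.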
